A study of Homo sapiens with 22 samples.

Results

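The genes followed here are 10 of the heat shock response: HSPA1A, HSPA1B, HSPA8, HSPH1, HSP90AA1, HSPB1, HSPD1, HSPE1, DNAJB1 and BAG3. They were chosen by symbol, as chaperones driven by heat shock factor 1 (HSF1), by a rule that uses no measured value but was drawn up with earlier results of these data known, and all 10 of 10 were found among the 35237 genes of the deposited count table. Most of them act in the cytosol and nucleus, whereas HSPD1 and HSPE1 encode the barrel and the lid of the mitochondrial chaperonin, so the genes are called heat shock genes here rather than cytosolic ones. All 10 passed the filter on low counts in every comparison.

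RNA was sequenced from 22 libraries of 2 established human neuroblastoma lines that the labels call mesenchymal, 16 of SK-N-AS and 6 of GIMEN. The treatments combined PP121, an inhibitor of tyrosine kinases and of kinases of the PI3-kinase family, with bufalin, a cardiac glycoside that inhibits the sodium-potassium pump. Untreated SK-N-AS cells (4 libraries) grew in DMEM with 10% serum. The first stage (S1D4, 4 libraries) was 5 µM PP121 in DMEM with 1% serum for 4 days. In the second stage those cells received 5 µM PP121 with 100 nM bufalin in Neurobasal medium with B27 for 4 days (S2D4, 4 libraries) or 30 days (S2D30, 4 libraries). Untreated GIMEN cells (3 libraries) grew in RPMI with 10% serum, and treated GIMEN cells (D30, 3 libraries) received 2.5 µM PP121 and 10 nM bufalin in RPMI with 1% serum for 30 days. No group had an agent without the change of serum or medium, so the parts of drug, medium and serum cannot be told apart, and no separate vehicle group entered the comparisons. The labels do not say that replicates were separate cultures, so p-values measure only the spread between these libraries, which may be technical.

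Cells answer misfolded protein by releasing HSF1 from chaperones that hold it inactive. HSF1 then forms trimers and binds heat shock elements, which are inverted repeats of the letters nGAAn, in front of chaperone genes. The HSP70 proteins bind exposed stretches of unfolded proteins in a cycle driven by ATP. J-domain proteins such as DNAJB1 load them with substrates, exchange factors such as HSPH1 and BAG3 release the nucleotide, and HSP90 takes over clients such as kinases and steroid receptors.

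The elements that HSF1 reads were searched in the 14 RefSeq promoter windows of these genes (GRCh38.p14, 250 bases before to 50 bases after each annotated start, both strands). The head-to-head dimer GAANNTTC was found in 8 of the 14 windows, which belong to 7 of the 10 genes, and in 6.77% of 35116 promoters of the same length. The tail-to-tail dimer TTCNNGAA was found in 3 of the 14 windows, of HSP90AA1, HSPA8 and HSPD1, against 7.74% of all promoters. The same 3 genes held the trimer, the head-to-head dimer followed by NNGAA or the reverse complement of that, which contains both dimers and was present in 0.49% of all promoters. The windows of BAG3, HSPE1 and HSPH1 held none of these letters, which says nothing of HSF1 binding elsewhere. The stretches around the elements before the starts of these 7 genes are printed because they match the heat shock element pattern. They also show that the HSPA1A and HSPA1B elements are alike. A further DNAJB1 start had a head-to-head dimer after it, at 2 to 9, which is not printed. Each is written on the strand of its gene, with the elements in capitals.
HSPA1A, chr6:31815422-31815459, plus strand: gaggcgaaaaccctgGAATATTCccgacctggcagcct
HSPA1B, chr6:31827618-31827655, plus strand: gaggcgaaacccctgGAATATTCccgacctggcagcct
HSPA8 far element, chr11:123062346-123062374, minus strand: gcgagcttGAAAGTTCCAGAAcgctgcgg
HSPA8 near element, chr11:123062171-123062199, minus strand: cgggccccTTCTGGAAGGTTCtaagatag
HSP90AA1, chr14:102087104-102087133, minus strand: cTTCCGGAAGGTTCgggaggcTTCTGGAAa
HSPB1, chr7:76302476-76302513, plus strand: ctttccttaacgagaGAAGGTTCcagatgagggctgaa
HSPD1, chr2:197500062-197500090, minus strand: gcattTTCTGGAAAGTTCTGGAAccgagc
DNAJB1, chr19:14518422-14518489, minus strand: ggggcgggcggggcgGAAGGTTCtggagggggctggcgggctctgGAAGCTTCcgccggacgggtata

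The HSPA1A and HSPA1B stretches lay at -121 to -84 and at -120 to -83 from their starts. Over the 250 bases before the start the alignment of the pair was identical in 235 of 251 columns, or 93.6%. Both carried TATAAA, the letters of the TATA box, which 11.5% of all promoters hold. CCAAT, the letters read by the factor NF-Y, was found in 7 of the 14 windows, against 34.6% of all promoters. Those windows belong to 5 of the 10 genes (DNAJB1, HSP90AA1, HSPA1A, HSPA1B and HSPA8), and DNAJB1 had it in each of its windows. HSPD1 and HSPE1 are transcribed away from each other on chromosome 2. RefSeq lists 2 starts of HSPD1, at 197499840 and 197500274. The element lay between the first of these and the start of HSPE1, downstream of the other, and 294 bases from the annotated start of HSPE1, which is outside the HSPE1 window. The stretches of HSPA8, HSP90AA1 and HSPD1 lay in annotated exons of longer transcripts in GENCODE 29, and the others overlapped no exon. No binding was measured, so a match is a description of the letters only.

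In GENCODE 29 (GRCh38) HSPA1A lies at chr6:31815464-31817946 and HSPA1B at chr6:31827735-31830255, side by side on the plus strand. HSPD1 (chr2:197486581-197516737, minus strand) and HSPE1 (chr2:197499994-197503457, plus strand) overlap. The others are HSPA8 at chr11:123057489-123063230, HSPH1 at chr13:31134974-31162388, HSP90AA1 at chr14:102080738-102139699 and DNAJB1 at chr19:14514770-14529770 on the minus strand, and HSPB1 at chr7:76302544-76304295 and BAG3 at chr10:119651370-119677819 on the plus strand. Some exon bases are shared with other genes: 36.5% of HSPA1B with AL671762.1 and 18.6% of HSPE1 with HSPE1-MOB4 on the same strand, and 4.57% of HSP90AA1 lie opposite WDR20. The build the authors counted on is not given in the sources used here.

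**Figure D1:**
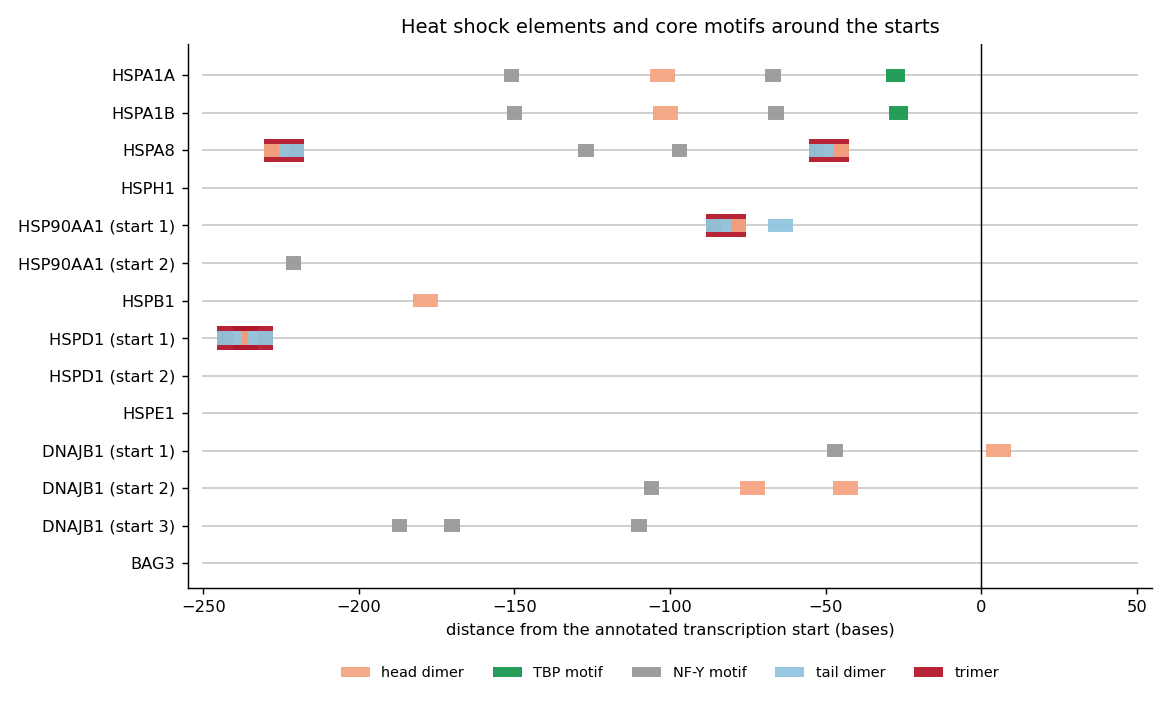
Positions of heat shock dimers and trimers, of the TATA motif (TBP) and of CCAAT (NF-Y) in the 14 promoter windows, by distance in bases from the annotated start. Windows of 7 of the 10 genes hold at least 1 heat shock element, and the rows of BAG3, HSPE1 and HSPH1 hold none.

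Libraries held 16456484 to 37506800 counts, of which the 10 genes took between 0.191% and 0.501%. Levels are given as CPM, the edgeR unit that divides a gene's counts by the library's effective size after trimmed-mean scaling within each line. One library stood apart: S2D4 replicate 4 correlated at 0.963 to 0.965 with the other S2D4 replicates, which correlated at 0.989 to 0.990 with each other across genes. Values without it are given for some of the results that it moves, not for all of them. Mitochondrially encoded genes took 5.47% to 12.4% of counts in untreated SK-N-AS libraries (replicate 2 the highest), 5.90% to 8.38% at S1D4, 4.29% to 4.96% at S2D4 and 3.34% to 5.53% at S2D30. In GIMEN they took 3.83% to 4.07% untreated and 2.86% to 4.77% at D30. Markers of the adrenergic neuroblastoma state summed to 1763 to 2006 CPM in untreated SK-N-AS cells and to 219 to 269.8 CPM at S2D30, and 8 of the 9 fell. The 9 mesenchymal markers summed to 998 to 1591 and then 3241 to 3976 CPM, most of it VIM (995 and 2955 CPM on average), and 7 rose while FN1 (log2 -5.02) and TWIST1 (-0.38) fell. A list of 7 leukocyte markers summed to 171 to 215 CPM in untreated and 5.13 to 8.67 CPM in S2D30 libraries. PTPRC alone averaged 187 and 0.877 CPM in them, whereas LAPTM5 (0.230 to 2.44 CPM, log2 3.40) and CD14 (1.43 to 3.19 CPM, log2 1.18) rose, and CD3E, a T cell marker, was at 0 in every SK-N-AS library. In GIMEN the adrenergic markers summed to 409.9 to 429.5 CPM untreated and 221 to 263 CPM at D30, and the mesenchymal markers to 34410 to 35970 and 18730 to 21180 CPM. Most of the latter was FN1 (28564 and 16035 CPM on average), and 6 of these 9 fell while CD44 (0.59) and WWTR1 (0.52) rose. The part of these marker and mitochondrial shifts in the changes below was not tested, and in bulk RNA fewer cells of a type and less RNA per cell cannot be told apart.

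In SK-N-AS most of the heat shock genes were lower at both 4-day points, and those called at day 30 split into higher and lower genes. At S1D4, 6 of the 10 genes fell and none rose, where 22.4% of the 15810 genes tested fell and 17.6% rose (edgeR quasi-likelihood test, adjusted p under 0.05). At S2D4, 7 fell and none rose, where 32.2% of all genes fell and 30.9% rose. At S2D30, 4 rose and 3 fell, where 33.8% rose and 36.5% fell, shares near those of all genes. These 3 comparisons use the same untreated libraries. The median log2 change of the 10 genes was -0.54, -0.50 and 0.12 in that order, beside -0.01, -0.02 and -0.03 over all genes.

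**Figure D2:**
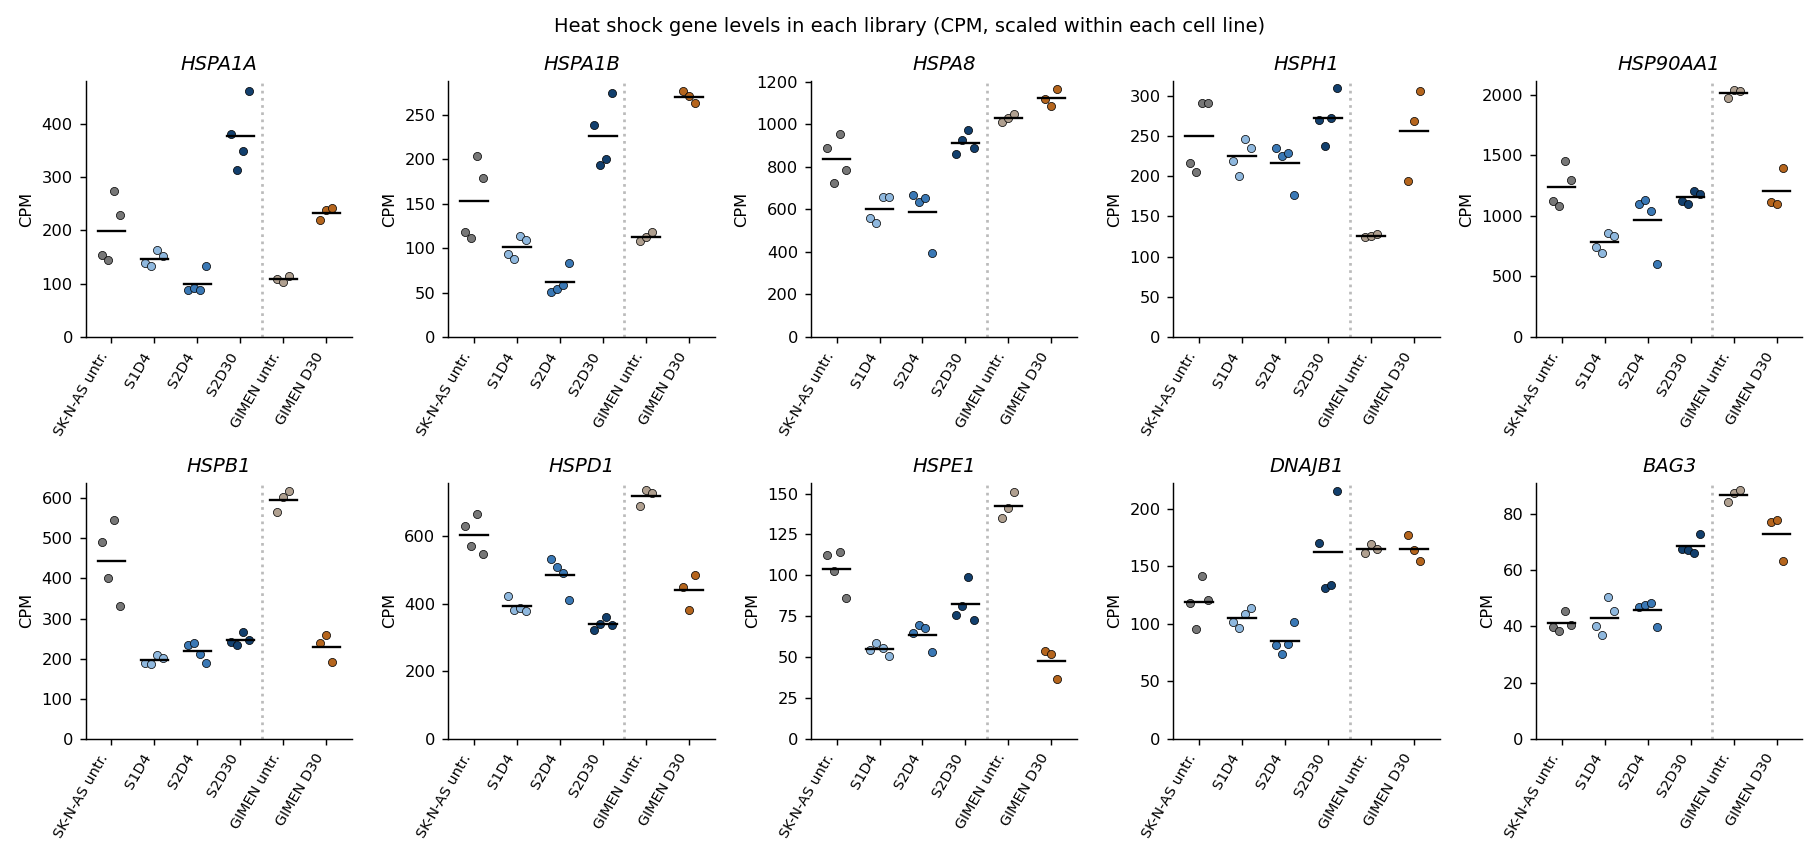
CPM of each of the 10 genes in every library, scaled within each line, with 1 point per library and a bar at the group mean (SK-N-AS groups left of the dotted line, GIMEN groups right). HSPA1A and HSPA1B are lowest at S2D4 and highest at S2D30 among the SK-N-AS groups, while HSPB1 and HSPD1 are below untreated in every treated group of both lines.

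HSPA1A and HSPA1B encode the stress-inducible HSP70, and their proteins are almost the same. HSPA1A measured 154, 143, 273 and 228 CPM in untreated replicates 1 to 4 and 138, 134, 164 and 152 CPM at S1D4. At S2D4 it measured 88.2, 92.3, 88.0 and 132 CPM, and at S2D30 it measured 381, 313, 348 and 461 CPM. Untreated replicates 3 and 4 were well above replicates 1 and 2, S1D4 overlapped them, every S2D4 library was below and every S2D30 library above every untreated one. The S1D4 difference did not pass the test (log2 -0.44, interval -0.82 to -0.07 as 1.96 standard errors either way, adjusted p = 0.0739 by edgeR). It passed without untreated replicate 1 (-0.53, adjusted p = 0.0494) or untreated replicate 2 (-0.57, adjusted p = 0.0248), and with a term for replicates 3 and 4 (-0.40, adjusted p = 0.0441). HSPA1A then fell at S2D4 against untreated by 0.99 ± 0.19 (SE) on the log2 scale (adjusted p = 0.000263) and rose at S2D30 by 0.91 ± 0.19 (adjusted p = 0.000416).

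HSPA1B measured 118, 111, 204 and 179 CPM untreated and 93.8, 87.5, 113 and 109 CPM at S1D4. Its S2D4 libraries held 50.4, 54.0, 58.9 and 83.8 CPM and its S2D30 libraries 238, 194, 200.4 and 275 CPM. The S1D4 and S2D30 groups each overlapped the untreated one through 1 or more libraries, and the S2D4 group did not. HSPA1B fell at S1D4 (log2 -0.60 ± 0.20, adjusted p = 0.0219) and at S2D4 (-1.31 ± 0.20, 2.47-fold, adjusted p = 2.56e-05), and rose at S2D30 (0.57 ± 0.20, adjusted p = 0.0159, by edgeR). Without S2D30 replicate 4 the last value was 0.46, with adjusted p = 0.0596, and this call was lost in 2 of 17 alternative settings (adjusted p up to 0.0616). The S1D4 fall did not pass without untreated replicate 3 (-0.43, adjusted p = 0.0943), untreated replicate 4 (-0.50, 0.0635), S1D4 replicate 1 (-0.57, 0.0549) or S1D4 replicate 2 (-0.54, 0.0643).

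The 2 genes share most of their sequence: 69.3% of the 75-base words of HSPA1A and 73.2% of those of HSPA1B occur in another gene of GENCODE 29. How the authors assigned such reads is not given in the sources used here, so the split between the pair is uncertain, and their counts were also summed. The summed pair fell at S1D4 (log2 -0.51, adjusted p = 0.0433) and S2D4 (-1.12, adjusted p = 8.99e-05) and rose at S2D30 (0.77, adjusted p = 0.00179, edgeR). HSPA1A held 56.1% to 57.2% of the pair's counts in untreated SK-N-AS libraries, 58.2% to 60.4% at S1D4, 59.9% to 63.6% at S2D4 and 61.5% to 63.5% at S2D30. In GIMEN it held 47.9% to 50.01% untreated and 44.1% to 47.9% at D30.

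DNAJB1, the J-domain partner that delivers substrates to HSP70, measured 118, 95.3, 141 and 120.4 CPM untreated and 102, 96.1, 108 and 113 CPM at S1D4. It measured 81.4, 74.0, 82.7 and 102 CPM at S2D4 and 170.2, 131, 134 and 216 CPM at S2D30. Both second-stage groups overlapped the untreated libraries, S2D4 from below and S2D30 from above. DNAJB1 fell at S2D4 (log2 -0.48 ± 0.15, adjusted p = 0.0105) and rose at S2D30 (0.45 ± 0.15, adjusted p = 0.0133 by edgeR). The S2D30 value was 0.29 without S2D30 replicate 4 (adjusted p = 0.073), and this call was lost in 2 of 16 alternative settings. At S1D4 the difference was -0.18, interval -0.48 to 0.11.

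BAG3, an exchange factor that links HSP70 to autophagy and to small heat shock proteins, measured 39.95, 38.4, 45.6 and 40.5 CPM untreated. It held 36.9 to 50.4 CPM at S1D4, 39.99 to 48.4 CPM at S2D4, and 67.6, 67.2, 66.3 and 73.0 CPM at S2D30. The first 3 groups overlapped and all S2D30 libraries were higher than all others. BAG3 rose at S2D30 (log2 0.74 ± 0.10, 1.67-fold, adjusted p = 4.17e-06 by edgeR) and did not pass at S1D4 (0.07) or S2D4 (0.15).

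HSPA8, the HSP70 that cells make without stress, measured 889, 724, 952 and 787 CPM untreated, 557, 537, 659 and 657 CPM at S1D4, and 669, 634, 652 and 393 CPM at S2D4. At S2D30 it was at 860.1, 925, 973 and 889.8 CPM, overlapping the untreated libraries, whereas all libraries of both earlier points were below them. HSPA8 fell at S1D4 (log2 -0.48 ± 0.14, adjusted p = 0.014) and at S2D4 (-0.51 ± 0.14, adjusted p = 0.00498), and at S2D30 the difference was 0.12, interval -0.16 to 0.40 (adjusted p = 0.457, edgeR). HSPH1, the HSP110 that exchanges nucleotide on HSP70, measured 205 to 291 CPM untreated, 200.1 to 246 at S1D4, 177 to 234 at S2D4 and 238 to 309 at S2D30. Those ranges overlapped and none of its 3 differences from untreated (-0.16, -0.21 and 0.12) passed. The S2D4 value of HSPH1 ran from -0.30 to -0.03 over 16 alternative settings.

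HSP90AA1, the stress-inducible cytosolic HSP90, measured 1122, 1078, 1452 and 1296 CPM untreated and 742, 695, 859 and 834 CPM at S1D4. It measured 1099, 1128, 1040.3 and 604 CPM at S2D4 and 1121, 1100.2, 1208 and 1179.9 CPM at S2D30. Only the S1D4 libraries were all below the untreated ones, and S2D4 replicate 4 was far below the other S2D4 libraries. HSP90AA1 fell at S1D4 (log2 -0.66 ± 0.16, adjusted p = 0.00323 by edgeR). The S2D4 difference was -0.35 (adjusted p = 0.0595) and -0.18 without that library (adjusted p = 0.128), and the S2D30 difference was -0.10.

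HSPB1, the small heat shock protein HSP27 that holds unfolded proteins without ATP, measured 492, 402, 545 and 332 CPM untreated. It measured 190.0, 187, 210.2 and 201 CPM at S1D4, 235, 240.1, 212 and 190.1 CPM at S2D4, and 242, 233, 266 and 245 CPM at S2D30. Every treated library was below every untreated one. HSPB1 fell by 1.17 ± 0.13, 1.01 ± 0.13 and 0.84 ± 0.12 on the log2 scale, with edgeR adjusted p = 2.88e-06, 2.59e-06 and 1.31e-05. It was the gene with the largest fall of the 10 at S1D4, 2.25-fold.

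HSPD1 (HSP60) forms the barrel of the mitochondrial chaperonin and HSPE1 (HSP10) its lid. HSPD1 measured 632, 570.4, 667 and 548 CPM untreated, 424, 380.4, 389 and 379 at S1D4, 533, 508, 490.3 and 411 at S2D4, and 323, 339, 362 and 337 at S2D30. All treated libraries were below the untreated ones, the S2D4 libraries by least. HSPD1 fell at S1D4 (log2 -0.62 ± 0.09, adjusted p = 5.02e-05), S2D4 (-0.32 ± 0.09, adjusted p = 0.0058) and S2D30 (-0.83 ± 0.09, adjusted p = 3.95e-07, edgeR).

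HSPE1 measured 112, 102, 114 and 86.4 CPM untreated, 54.4, 58.4, 55.2 and 50.3 at S1D4, 64.9, 69.5, 67.5 and 52.8 at S2D4, and 75.6, 81.5, 99.0 and 72.9 at S2D30. It was lowest at S1D4, and only the S2D30 libraries overlapped the untreated ones. HSPE1 fell at S1D4 (log2 -0.93 ± 0.12, adjusted p = 1.22e-05), S2D4 (-0.71 ± 0.12, adjusted p = 5.33e-05) and S2D30 (-0.34 ± 0.12, adjusted p = 0.0154, edgeR). Without S2D30 replicate 4 the last value was -0.28 (adjusted p = 0.0552), and this call was lost in 3 of 16 alternative settings (adjusted p up to 0.0666). The count ratio of HSPD1 to HSPE1 was 5.57 to 6.35 untreated, 6.51 to 7.79 at S1D4, 7.27 to 8.21 at S2D4 and 3.66 to 4.62 at S2D30. In GENCODE 29, 27.3% of the HSPE1 exon bases lie opposite an HSPD1 exon, so without knowledge of strand use in the counting, which is not given in the sources used here, their reads may be mixed.

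**Figure D3:**
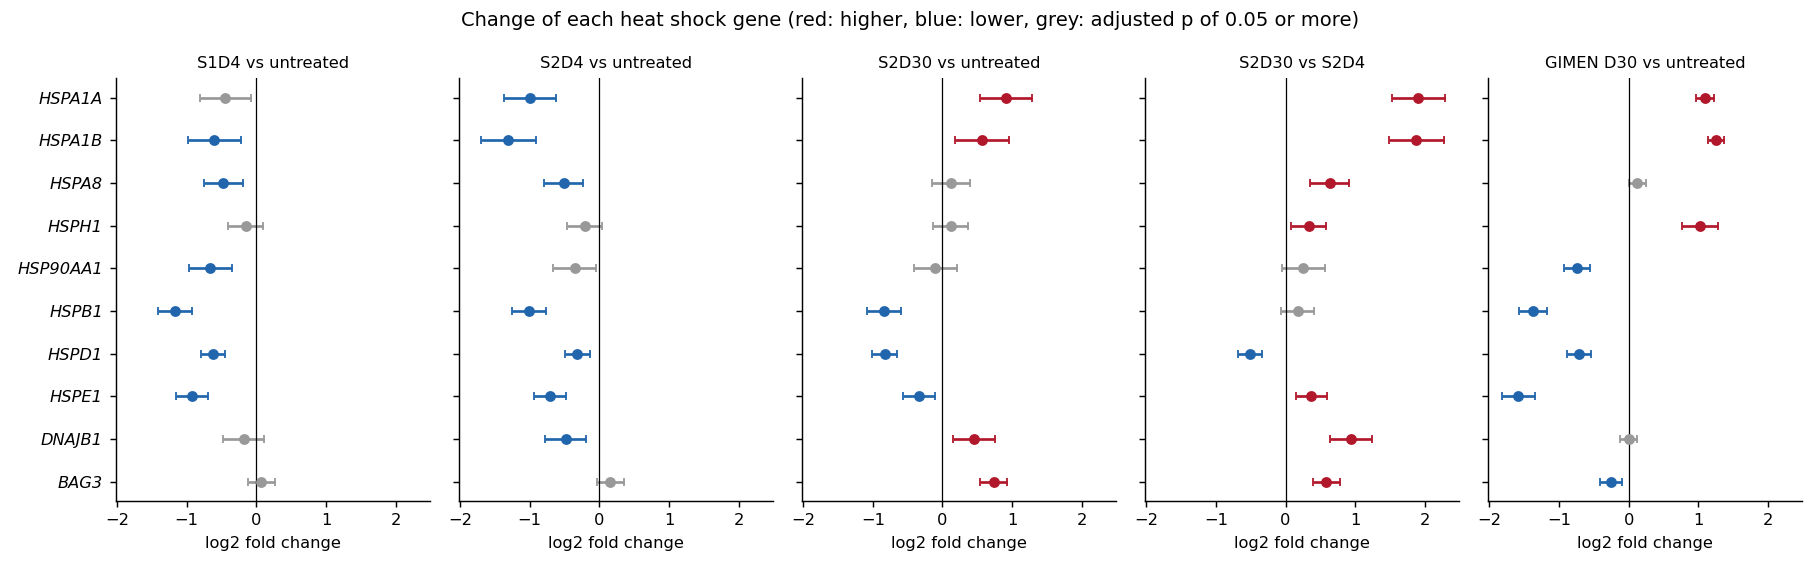
Log2 fold change of each gene in 4 SK-N-AS comparisons and in GIMEN, with bars of 1.96 standard errors either way and colour for an adjusted p under 0.05. HSPA1A moves from -0.99 at S2D4 to 0.91 at S2D30 against the same untreated libraries, while HSPB1 stays at -0.84 or below in all 3 comparisons with untreated SK-N-AS cells.

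The step from S1D4 to S2D4 added bufalin, changed the medium and added 4 days with PP121, and these parts cannot be told apart. Against S1D4, 1 of the 10 genes rose and 2 fell at S2D4, where 28.3% of all genes rose and 26.8% fell. HSPA1B (log2 -0.71 ± 0.20, adjusted p = 0.00621) and HSPA1A (-0.55 ± 0.19, adjusted p = 0.0223) fell, and HSPD1 rose (0.31 ± 0.09, adjusted p = 0.00866, edgeR). All S2D4 libraries were below all S1D4 libraries for the HSPA1 pair, and for HSPD1 the groups overlapped through S2D4 replicate 4. The HSPA1A call was lost without S1D4 replicate 3 or any 1 of S2D4 replicates 1 to 3, with adjusted p of 0.0572 to 0.0636. The count of calls rested on S2D4 replicate 4. Without it, 6 genes changed: HSP90AA1 (0.48), HSPD1 (0.38) and HSPE1 (0.30) rose, while HSPA1B (-0.89), HSPA1A (-0.71) and DNAJB1 (-0.40) fell. The share of all genes called without that library was not taken, so this count has no background beside it.

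From day 4 to day 30 of the second stage, with drugs and medium held, 7 of the 10 genes rose and 1 fell, where 24.4% of all genes rose and 26.9% fell. The median log2 change of the 10 was 0.48 beside -0.02 over all genes. HSPA1A rose 3.75-fold (log2 1.91 ± 0.20, adjusted p = 6.53e-07) and HSPA1B 3.67-fold (1.87 ± 0.20, adjusted p = 1.08e-06, edgeR), and no library of 1 time reached the other for either gene. DNAJB1 rose 1.92-fold (0.94 ± 0.15, adjusted p = 7.89e-05). HSPA8 (0.64), BAG3 (0.58), HSPE1 (0.37) and HSPH1 (0.33) also rose, HSPH1 with an adjusted p = 0.04 that became 0.106 without S2D4 replicate 4. HSPD1 fell by 0.51 ± 0.09 (adjusted p = 0.000163), the opposite direction to its chaperonin partner HSPE1. HSP90AA1 (0.25, interval -0.06 to 0.56) and HSPB1 (0.17, interval -0.07 to 0.41) did not pass, and without S2D4 replicate 4 their values were 0.08 and 0.11. Without S2D4 replicate 4 the HSPA1A change was 2.07, and 6 genes rose, with no share of all genes taken for that fit.

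The ratio of inducible to constitutive HSP70 messenger was highest at S2D30. HSPA1A and HSPA1B together had 0.306 to 0.517 counts per HSPA8 count in untreated SK-N-AS libraries and 0.397 to 0.420 at S1D4. At S2D4 it was 0.207 to 0.551, the top value being replicate 4, and at S2D30 it was 0.548 to 0.827. Each S2D30 library was above all untreated and S1D4 libraries, and S2D4 replicate 4 reached into its range. In GIMEN the ratio was 0.209 to 0.222 untreated and 0.434 to 0.469 at D30.

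In GIMEN at 30 days, 3 of the 10 genes rose and 5 fell, where 35.5% of the 13517 genes tested rose and 36% fell, and the median log2 change was -0.13 beside 0.02 over all genes. HSPA1A measured 108, 103 and 114 CPM untreated and 219, 239 and 242 CPM at D30. HSPA1B measured 108, 112 and 119 and then 277, 271 and 263 CPM. Treated and untreated libraries were far apart for both, and HSPA1B rose 2.39-fold (log2 1.26 ± 0.06, adjusted p = 8.36e-09) and HSPA1A 2.15-fold (1.10 ± 0.07, adjusted p = 4.95e-08, edgeR). HSPH1 measured 124, 126 and 128 CPM untreated and 194, 268 and 306 CPM at D30, and rose 2.03-fold (1.02 ± 0.13, adjusted p = 2.37e-05).

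HSPE1, the chaperonin lid, and HSPB1 had the largest falls of the 10 in GIMEN. HSPE1 measured 135, 141 and 151 CPM untreated and 53.7, 52.0 and 36.6 CPM at D30, and fell 2.99-fold (log2 -1.58 ± 0.12, adjusted p = 3.11e-07). HSPB1 measured 566, 604 and 618 CPM and then 239, 259.6 and 192 CPM, and fell 2.59-fold (-1.37 ± 0.10, adjusted p = 2.38e-07). These treated libraries were all below the untreated ones. HSPD1 went from 691, 738 and 729 CPM to 451, 383 and 485 CPM (-0.71 ± 0.09, adjusted p = 1.65e-05) and HSP90AA1 from 1969, 2039 and 2029 CPM to 1117, 1095 and 1396 CPM (-0.74 ± 0.09, adjusted p = 2.35e-05, edgeR). Both fell with no overlap. BAG3 went from 84.3, 87.5 and 88.6 CPM to 77.3, 78.1 and 63.3 CPM, a small fall (-0.25 ± 0.08, adjusted p = 0.0145). HSPA8 (1010.03 to 1049 CPM untreated, 1087 to 1164 CPM at D30) was higher in every treated library but did not pass (0.13, adjusted p = 0.0935). DNAJB1 was at 162 to 169 CPM untreated and 155 to 177 CPM at D30, a difference of 0.00 with an interval of -0.13 to 0.12.

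The 30-day changes of both lines were compared in 1 model of 14 libraries. Doses, media and the earlier stage differed between the lines, so a difference cannot be ascribed to the line alone. The changes differed for 6 of the 10 genes, 4 with the more positive value in SK-N-AS and 2 with the more negative, where 24.5% and 25.2% of the 16246 genes tested did so. The log2 change was more positive in SK-N-AS than in GIMEN for HSPE1 (difference of log2 changes 1.23 ± 0.19, adjusted p = 5.54e-05), BAG3 (0.97 ± 0.12, adjusted p = 6.37e-06), HSP90AA1 (0.62 ± 0.16, adjusted p = 0.00412) and HSPB1 (0.51 ± 0.20, adjusted p = 0.0444, edgeR), the last lost in 10 of 21 alternative settings (adjusted p up to 0.118). It was more negative for HSPH1 (-0.92 ± 0.21, adjusted p = 0.00165) and HSPA1B (-0.70 ± 0.25, adjusted p = 0.0259, lost in 8 of 22 settings). For BAG3 the directions were opposite, a rise in SK-N-AS and a fall in GIMEN. HSPA1A (-0.20, interval -0.70 to 0.30), HSPD1 (-0.13, interval -0.40 to 0.13), HSPA8 (-0.02, interval -0.30 to 0.25) and DNAJB1 (0.44, interval 0.01 to 0.87) did not pass. For the summed HSPA1 pair the difference was -0.42 (adjusted p = 0.178).

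**Figure D4:**
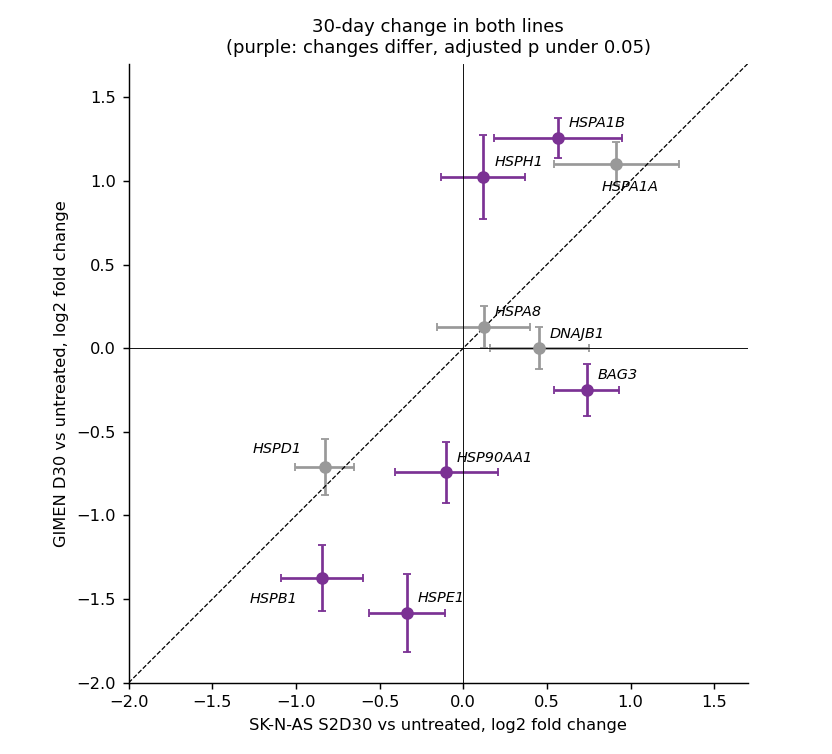
Log2 fold change at 30 days in SK-N-AS (x axis) against GIMEN (y axis) for the 10 genes, with bars of 1.96 standard errors either way and a dashed line of equal change. HSPA1A, HSPA1B, HSPA8 and HSPH1 lie above 0 on both axes and HSPB1, HSPD1, HSPE1 and HSP90AA1 below 0 on both. The SK-N-AS bars of HSPA8, HSPH1 and HSP90AA1 cross 0. BAG3 is at 0.74 in SK-N-AS and -0.25 in GIMEN.

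Before treatment the lines already differed in 9 of the 10 genes, 2 higher and 7 lower in SK-N-AS, where 38.6% of all genes were higher and 35.3% lower. On a scale common to all 22 libraries, untreated SK-N-AS cells had less BAG3 (38.8 against 95.7 CPM, log2 -1.32, adjusted p = 4.59e-10) and less HSP90AA1 (1169 against 2219 CPM, -0.94, adjusted p = 1.02e-06). DNAJB1 (-0.71), HSPE1 (-0.69), HSPB1 (-0.67), HSPA8 (-0.53) and HSPD1 (-0.49) were lower as well. HSPH1 (0.75, adjusted p = 0.000275) and HSPA1A (0.64, adjusted p = 0.00499, edgeR) were higher in SK-N-AS, and HSPA1B did not pass (0.20). On that scale the group means of HSPA1A ran from SK-N-AS S2D30 (364 CPM) through GIMEN D30 (262), untreated SK-N-AS (189), S1D4 (141) and untreated GIMEN (119.7) to S2D4 (97.0). The libraries of S2D30 stood apart from those of the next group, and those of S1D4 from untreated GIMEN, and the other neighbours overlapped. For HSPA1B, GIMEN D30 (303.7 CPM) stood first, apart from S2D30 (219.7). The pair summed to 584 ± 97.0 CPM (SD, n = 4) at S2D30 and 565.5 ± 7.12 CPM (SD, n = 3) at GIMEN D30, and these overlapped, so the top rank of either gene rests on the uncertain split. BAG3 ran from untreated GIMEN (95.7 CPM) through GIMEN D30 (81.9) and S2D30 (66.4), each apart from the next, to the other 3 SK-N-AS groups at 38.8 to 44.3 CPM, which overlapped.

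Levels of different genes were compared per kilobase of annotated exon. In untreated SK-N-AS cells HSPB1 led with a mean of 394 CPM per kb, followed by HSPA8 (293) and HSP90AA1 (290.2), and BAG3 was lowest at 15.1. The HSPB1 libraries there (302 to 482 CPM per kb) overlapped those of HSPA8 (251 to 331). At S2D30 the order began with HSPA8 (327 CPM per kb), HSP90AA1 (277) and HSPB1 (226), and the mean of HSPA1A (147) stood above that of HSPD1 (128). The libraries of HSPA1A (122 to 179.7) and HSPD1 (121.7 to 136.6) overlapped, and the HSPA1A level rests on the uncertain split. In untreated GIMEN HSPB1 (619.8 CPM per kb) and HSP90AA1 (551) led, and at D30 HSPA8 did (467). HSPB1 went from rank 1 untreated to rank 3 at 30 days in both lines, as the order of these means.

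Across the 16 SK-N-AS libraries the levels of HSPA1A, HSPA1B and DNAJB1 moved together: Pearson r was 0.979 for HSPA1A with HSPA1B, 0.948 for HSPA1A with DNAJB1 and 0.940 for HSPA1B with DNAJB1. HSPB1 and HSPE1 had r = 0.902 and HSPA8 and HSP90AA1 r = 0.873, while the 2 chaperonin genes had r = 0.506. The lowest of the 45 pairs was HSPD1 with BAG3 (r = -0.626). These values describe 16 points that share 4 groups and, for HSPA1A and HSPA1B, shared sequence. Among 10191 genes searched, the genes most like HSPA1A were LRCH2 (r = 0.958) and RCBTB1 (0.952), and those most like HSPA1B were DNAJB4 (0.956), another J-domain gene, and PTPRB (0.946). DNAJB1 was most like FOXK2 (0.928) and DNAJB4 (0.916), HSPB1 most like COX7C (0.953) and CACYBP (0.946), and HSPE1 most like the ribosomal protein genes RPS2 (0.954) and RPS12 (0.945). HSPD1 was most like RWDD4 (0.981) and HDAC2 (0.978), BAG3 most like P4HA2 (0.972) and SLC30A5 (0.968), and HSPA8 most like PMVK (0.944) and HDLBP (0.940). HSP90AA1 followed SYAP1 (0.938) and TRIM5 (0.926), and HSPH1 had the weakest likeness, to ATL3 (0.848) and XPOT (0.845).

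HSF1 itself, the factor that reads the elements, measured 225, 232, 327 and 330.4 CPM on average in the untreated, S1D4, S2D4 and S2D30 groups. It rose at S2D4 (log2 0.54, adjusted p = 2.92e-05) and S2D30 (0.56, adjusted p = 1.49e-05), so HSF1 messenger was up at S2D4 where HSPA1A and HSPA1B were lowest. In GIMEN HSF1 rose from 109.7 to 136 CPM (0.31, adjusted p = 0.00104, edgeR). Messenger says nothing of HSF1 activity, which was not measured. HSF2 fell at S1D4 (-0.44) and rose in GIMEN (0.65). HSF4 rose at S1D4 (0.83) and in GIMEN (0.37), and HSBP1, a small protein that binds HSF1 trimers, fell at S1D4 (-0.39) and S2D30 (-0.59).

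A list of 20 other heat-inducible HSF1 targets gave a mixed account. At S1D4 2 rose and 10 fell, 4 rose and 9 fell at S2D4, and 7 rose and 8 fell at S2D30. Of all genes, 17.6%, 30.9% and 33.8% rose and 22.4%, 32.2% and 36.5% fell, so the S2D30 counts were near those shares. The list medians were -0.30, -0.22 and -0.16 beside the medians over all genes given above. HSPA6, a strictly inducible HSP70, rose from 0.545 to 21.1 CPM at S2D30 (log2 5.30, adjusted p = 3.89e-09 by edgeR), with reads that a close copy, HSPA7, could share. DNAJA1, a J-domain partner of HSC70, fell at S2D4 (-1.52) and S2D30 (-1.16). ZFAND2A, a heat-inducible proteasome adaptor, rose at S1D4 (0.57) and S2D4 (0.94), and CACYBP, a protein of a ubiquitin ligase complex, fell at S1D4 (-0.79). From S2D4 to S2D30, 10 of the 20 rose and 5 fell, where 24.4% of all genes rose and 26.9% fell. HSPA6 (3.61) was at the top and SERPINH1, the collagen chaperone HSP47, at the bottom (-1.47). In GIMEN 6 of 19 tested rose and 8 fell, near the 35.5% and 36% of all genes that did so. DEDD2 was the most upward (1.87) of those at 10 CPM or more and CACYBP the most downward (-1.03).

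The counts of other chaperone classes are to be read beside the shares of all genes that fell (22.4%, 32.2%, 36.5% and, in GIMEN, 36%) and rose (17.6%, 30.9%, 33.8% and 35.5%), and no difference between lists was tested. Of 14 genes of the cytosolic chaperonin CCT and of prefoldin, which fold actin and tubulin, 10, 8 and 10 fell at S1D4, S2D4 and S2D30 and 11 fell in GIMEN, with list medians of -0.39, -0.335, -0.55 and -0.72. CCT3 was at -1.24 at S2D30 and CCT5 at -1.25 in GIMEN. PFDN2 was the exception that rose at S2D30 (0.86). Of 16 endoplasmic reticulum chaperones, 13 rose and none fell at S2D4, when 7 of the heat shock genes fell, and 9 rose and 1 fell at S2D30 (list medians 0.79 and 0.44). At S1D4 3 rose and 4 fell (median -0.12). SIL1 led at S2D4 (1.42), DNAJC3 at S2D30 (1.88) and PDIA4 fell (-0.61). In GIMEN 3 of these 16 rose, DNAJB9 most (2.47), and 10 fell, PDIA4 most (-1.42), with a median of -0.25.

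Among 23 cochaperones of HSP70 and HSP90, 3 rose and 7 fell at S1D4, 5 rose and 9 fell at S2D4, and 6 rose and 12 fell at S2D30 (medians -0.14, -0.08 and -0.29). The J-domain gene DNAJB2 rose by 2.05 and FKBP5, an HSP90 cochaperone of steroid receptors, fell by 2.52 on the log2 scale at S2D30. In GIMEN 2 of 22 rose, BAG1 most (1.33), and 14 fell, FKBP5 most (-2.16), with a median of -0.28. Of 12 other mitochondrial chaperones and proteases, none rose and 3 fell at S1D4, 6 rose and 3 fell at S2D4, 5 rose and 5 fell at S2D30, and 2 rose and 6 fell in GIMEN (medians -0.17, 0.20, 0.05 and -0.11). HSPA9, the mitochondrial HSP70, rose at S2D30 (0.89), where HSPD1 and HSPE1 fell. Of 7 other small heat shock protein genes only 3 had enough counts in SK-N-AS. HSPB6 fell at S2D30 (-3.04) and in GIMEN (-1.22). HSPB8, the partner of BAG3, rose at S2D30 from 0.560 to 9.997 CPM (4.08, adjusted p = 2.12e-07 by edgeR) and in GIMEN (1.40). Its S2D30 rise is below the 10 CPM level set for named genes, and untreated SK-N-AS libraries held 2 to 42 counts of it. HSPB7, also low in counts (1.21 to 0.609 CPM), fell at S2D30 (-0.96).

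**Figure D5:**
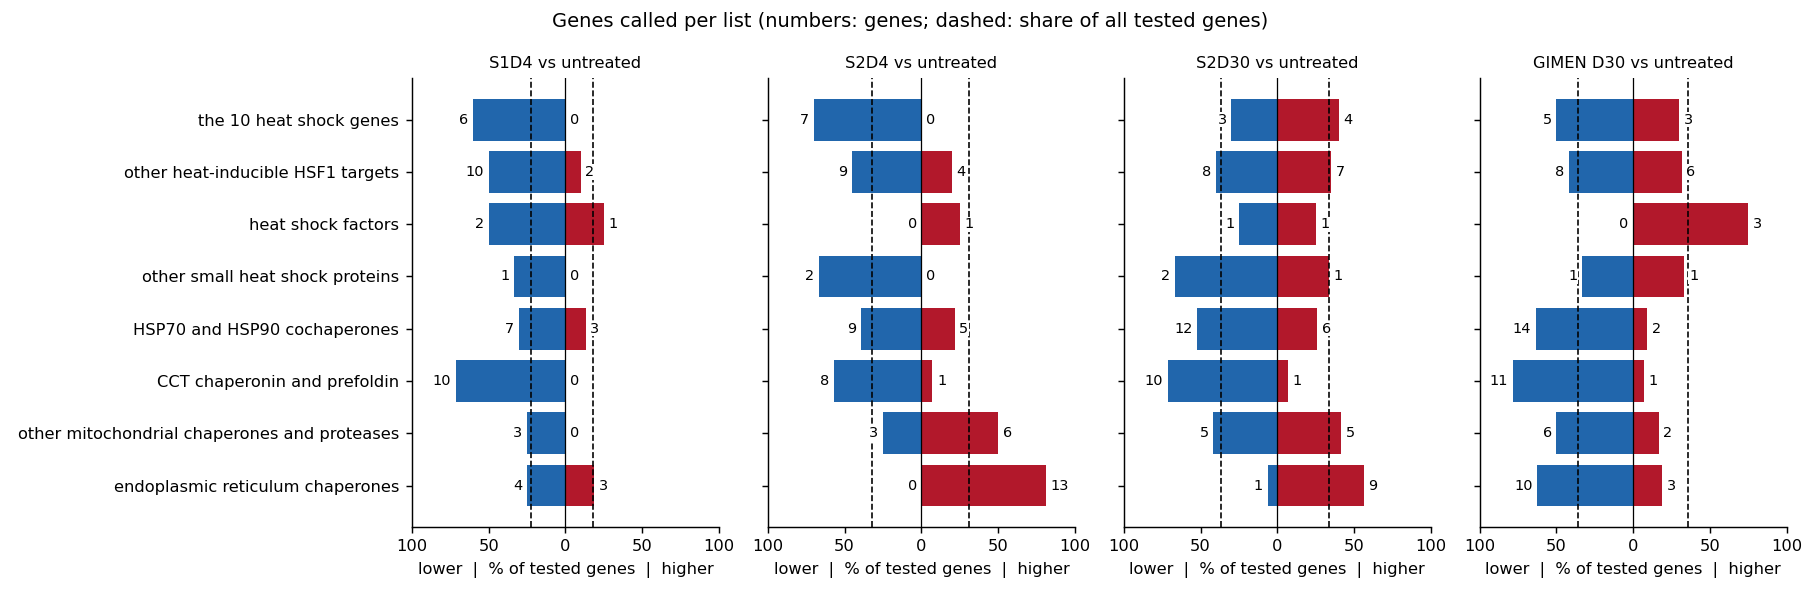
Share of tested genes that were higher (red, right) or lower (blue, left) at an adjusted p under 0.05 in each list, with gene counts beside the bars and dashed lines at the shares of all tested genes. At S2D4 the 10 heat shock genes have 7 lower and 0 higher, and the endoplasmic reticulum chaperones 13 higher and 0 lower.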

How the data were processed

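Per the labels' protocols, total RNA was extracted with DNase, libraries were made by Novogene and sequenced in pairs on an Illumina HiSeq X. The authors deposited raw counts per gene symbol, and the aligner, build, annotation, strand setting and handling of shared reads are not given in the sources used here. Groups, doses and days came from the labels. Counts were filtered with filterByExpr (minimum count 10, total 15), scaled by trimmed means and tested with the quasi-likelihood test of edgeR 4.0.16 in R 4.3.3, with Benjamini-Hochberg adjustment over all genes and a threshold of 0.05. One model held the 16 SK-N-AS libraries (15810 genes), 1 the 6 GIMEN libraries (13517) and 1 the 14 untreated and 30-day libraries (16246). The scripts were tested on simulated counts. Intervals are 1.96 standard errors either way. Alternatives were DESeq2 1.42.0, other scalings and filters, a replicate block, only the groups compared, and each library left out. Exons, coordinates of genes and shared words came from GENCODE 29, and promoters from RefSeq (GRCh38.p14). The 10 genes, the 7 pathway lists and the 4 marker lists were chosen with earlier results of these data known. Named list genes are, per list and comparison, those with the greatest rise and fall past the threshold among genes averaging 10 CPM or more. Heat shock factors are named in full, markers are named outside this rule, and HSPB7 and HSPB8 at S2D30 are named although below that level. The 2 most alike genes are those with the highest Pearson r of log2 CPM. The endothelial and epithelial markers summed to 1.23 to 11.1 CPM in SK-N-AS, and in GIMEN to 2.81 to 3.17 CPM untreated and 22.6 to 27.5 CPM at D30. Most of the GIMEN sum was PECAM1, which rose from 2.54 to 24.5 CPM (log2 3.26, adjusted p = 2.11e-09 by edgeR).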

Additional observations from a re-analysis of the deposited data

Results flagged for a closer look

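In S2D4 replicate 4, HSPA8 (393 CPM), HSPH1 (177 CPM) and HSP90AA1 (604 CPM) were each far below, and HSPA1A (132 CPM) far above, the other 3 S2D4 libraries by Dixon's test of the gap. They are 4 of 40 tests of a gene in a group of 4, and chance gives about 1 in 20. The 30-day change differed between SK-N-AS and GIMEN, by the interaction term of the edgeR model, for 6 of the 10 genes. Of all 16246 genes tested, 24.5% were more positive and 25.2% more negative in SK-N-AS by that term. The SK-N-AS minus GIMEN difference in log2 fold change was 1.23 for HSPE1, 0.97 for BAG3, 0.62 for HSP90AA1, 0.51 for HSPB1 (lost in 10 of 21 alternative settings), -0.70 for HSPA1B (lost in 8 of 22) and -0.92 for HSPH1. Doses, media and the earlier stage differed with the line.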

How the results depend on the processing

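Of 125 recounts of the genes called, 122 stayed within 1.5 times. Shares of all genes called were not taken for the recounts. With the replicate block 5 genes were called at S2D4 against S1D4, 2 higher and 3 lower, and 3 without it. The block gave 7, 7 and 7 calls at S1D4, S2D4 and S2D30 against untreated, HSPA1A being the gene added at S1D4 (-0.41, adjusted p = 0.0375 by edgeR). Replicate numbers were not taken to pair the libraries, since not every same-numbered pair correlated: deviations of same-numbered SK-N-AS libraries had a mean correlation of 0.0414 (24 pairs, -0.106 to 0.311) and those of GIMEN -0.017. Between the untreated and S1D4 groups they were 0.305, 0.276, 0.033 and 0.311 for replicates 1 to 4, and S1D4 replicate 3 correlated best with untreated replicate 4 (0.306). Within S1D4, replicates 1 and 2 correlated at 0.162 and replicates 3 and 4 at 0.149, but at -0.595 to -0.559 across these pairs. Within untreated, the values were 0.074 for 1 with 2, -0.273 for 3 with 4 and -0.640 for 1 with 4. The source of this split was not tested. Leaving out 1 library at a time gave 5 to 7 calls at S1D4, 7 to 8 at S2D4, 4 to 7 at S2D30, 2 to 6 for S2D4 against S1D4, 6 to 8 for S2D30 against S2D4, 7 to 8 in GIMEN, 4 to 6 for the line difference and 9 for untreated lines. The low of 4 at S2D30 (2 higher, 2 lower) came without S2D30 replicate 4, and the 6 for S2D4 against S1D4 without S2D4 replicate 4. A term for replicates 3 and 4 of the untreated and S1D4 groups, chosen after seeing the data for S2D4 and S2D30, gave 7 calls at S1D4, 7 at S2D4 (1 higher) and 8 at S2D30.

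Calls were lost most often for the line difference of HSPB1 (10 of 21 settings) and HSPA1B (8 of 22), and for HSPH1 in S2D30 against S2D4 (7 of 15), HSPA1B at S1D4 (4 of 17) and HSPA1A in S2D4 against S1D4 (4 of 16). The values that turned sign were all uncalled, and the cause was not tested. BAG3 became -0.0095 (S2D4 against S1D4, upper-quartile scaling) and -0.0102 (S1D4 against untreated, without S1D4 replicate 3, up to 0.141 with another library left out). HSP90AA1 at S2D30 became 0.0458 with the replicate 3 and 4 term. HSPA8 in S2D4 against S1D4 became 0.0065, 0.0048 and 0.112 without S1D4 replicate 3, S1D4 replicate 4 and S2D4 replicate 4, and HSPH1 0.028 without the last (down to -0.11 with another left out). DNAJB1 in GIMEN became 0.0028 (DESeq2 size factors), 0.0492 (upper quartile), 0.0029 (DESeq2), 0.0032 (mean of 10 counts) and 0.01, 0.0063 and 0.0448 with a library left out (down to -0.0475). The line difference of HSPA8 became 0.0055 with all 22 libraries in the model and 0.0153, 0.0411, 0.0047, 0.0047 and 0.0105 with a library left out (down to -0.10).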
